A study of Macaca mulatta with 7 samples.

Results

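CAPZA3, ACTL7A, ACTL7B, ACTRT2, SPEM1, LELP1, SPATA3 and FAM71B are 8 genes of late spermatids, the haploid cells that reshape their round nucleus into a sperm head. They were chosen by name, and all 8 of 8 were found among the 18282 genes of the deposited table. The material was total RNA of sperm cells from rhesus macaques (Macaca mulatta). It came from 3 animals of a group the submitters call Maltreated, aged 5.67 to 5.78 years, and 4 animals of a Control group, aged 5.72 to 5.92 years, with 1 library per animal. The series title names early life stress and germline RNA, and the labels say nothing more about how either group was raised. Sperm of both groups passed a PureSperm 40/80 density gradient, which holds back round cells and debris, before TRIzol extraction. In such bulk RNA, fewer cells of a type and less RNA per cell cannot be told apart.

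As a spermatid elongates, actin and microtubule structures anchor the acrosome and press the nucleus into shape, and the cytoplasm is then shed. The actin capping protein, made of an alpha and a beta subunit, closes the fast-growing end of actin filaments, and CAPZA3 is its testis-specific alpha subunit. ACTL7A, ACTL7B and ACTRT2 are actin-like proteins. In mice ACTL7A lies in the acroplaxome, the plate that fixes the acrosome to the nucleus. ACTRT2 has been assigned to the perinuclear theca, the shell around the nucleus. SPEM1 is needed in mice for removal of spermatid cytoplasm, and its loss bends the head back on the tail. Transcription ends during this stage, so sperm RNA is largely what was left from it.

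The label was checked against marker genes. PRM2 and PRM1, the protamines that pack sperm DNA, and 4 further genes of nuclear condensation (PRM3, TNP1, TNP2 and H1FNT) summed to 43673 to 89671 counts per 1000000 sense counts (CPM) in Maltreated and 40260 to 56351 CPM in Control sperm. All 9 of 9 listed markers of earlier germ cells had counts, with sums of 243 to 348 CPM in Maltreated and 218 to 278 CPM in Control sperm. All 10 of 10 leukocyte markers had counts, and their sum ran from 9.64 to 1000.2 CPM in Maltreated and from 5.59 to 618 CPM in Control sperm, with the highest values in Maltreated 3 and Control 4. The 9 epithelial markers summed to 2.76 to 8.70 CPM in Maltreated and 2.94 to 25.5 CPM in Control sperm. The 8 testis somatic markers summed to 20.2 to 34.4 CPM in Maltreated and 11.5 to 53.0 CPM in Control sperm. INSL3 of Leydig cells was the only 1 of the 8 without a count in any library, so STAR and CYP17A1 of the same list had counts. Depth ran from 6160996 to 30715268 sense counts in Maltreated and from 5316383 to 9847743 in Control libraries, the deepest being Maltreated 1.

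Levels of different genes are compared here as CPM per kilobase of exon. A read that spans exons is counted on each of them, which can raise genes with several exons relative to single-exon genes. By their means over the 7 libraries the 8 genes ranked between 43 and 5996 among all 18282 genes. LELP1 was the most abundant, with 672, 725 and 552 CPM per kilobase in Maltreated 1 to 3, against 1053, 388, 586 and 1327 in Control 1 to 4. It encodes a small proline-rich protein that resembles those of the cornified envelope of skin. It ranked 43 by its mean, and in single libraries between 23 and 94. SPATA3, a spermatogenesis-associated gene, came next with 658, 259 and 294 CPM per kilobase in Maltreated 1 to 3, against 295, 235, 257 and 172 in Control 1 to 4, and ranked 121 by its mean. LELP1 stood above SPATA3 in 7 of 7 libraries, but by a ratio that ran from 1.02 in Maltreated 1 to 7.73 in Control 4, so their ranges over the libraries overlapped.

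SPEM1 followed with a median of 49.8 CPM per kilobase and a range of 25.9 to 137. All of these values lay below the lowest SPATA3 value. ACTRT2 had a median of 28.1 (15.6 to 39.6), CAPZA3 of 18.7 (4.54 to 38.6) and ACTL7A of 13.7 (8.37 to 31.5). These neighbours in the order did not separate: SPEM1 exceeded ACTRT2 in 5, ACTRT2 exceeded CAPZA3 in 6 and CAPZA3 exceeded ACTL7A in 5 of the 7 libraries. ACTL7B and FAM71B closed the order with medians of 3.84 (0.936 to 8.06) and 3.69 (1.80 to 9.33) CPM per kilobase. ACTL7A lay above the highest ACTL7B value in every library, whereas ACTL7B exceeded FAM71B in 2 of the 7. FAM71B, also called GARIN3, belongs to a family of proteins that bind the small GTPase RAB2 in mice.

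**Figure D1:**
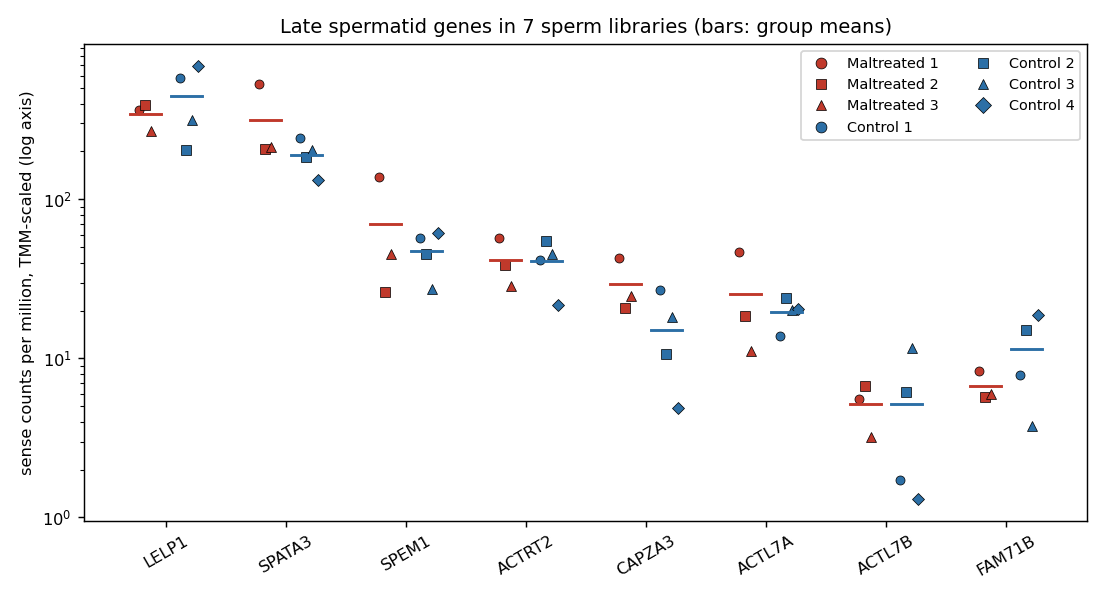
Sense CPM, scaled with TMM factors and on a log axis, for each of the 8 genes, with Maltreated libraries (red) left of Control libraries (blue); horizontal bars are group means. Points of both groups overlap in all 8 genes, and Maltreated 1 (red circle) is the highest library in 5 of them.

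The comparison the design sets up is that of Maltreated with Control sperm. For it, counts were scaled to CPM with TMM factors, which balance library composition, and tested with edgeR's quasi-likelihood test across the 10719 genes that passed its filter on low counts. All 8 genes passed that filter. None of the 8 differed at an adjusted p of 0.05, and neither did any other gene (0 of 10719, 0%). At an unadjusted p under 0.05 there were 0 of the 8, where 191 of all tested genes (1.78%) lay. The groups did not overlap in 0 of the 8 and in 3.59% of all tested genes. With the DESeq2 Wald test 3 genes of the whole table passed and with limma-voom 0, and none of those 3 was among the 8. The p-values set the group difference against the spread between these samples, which the labels list separately with an age for each.

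SPATA3 had 529, 209 and 213 CPM in Maltreated 1 to 3, against 242, 184, 206 and 133 CPM in Control 1 to 4. Maltreated 1 stood far above the rest, and the other Maltreated libraries lay within the Control values. The SPATA3 means were 317 ± 184 (SD, n = 3) and 191 ± 45.8 CPM (SD, n = 4), with a log2 fold change of 0.73 ± 0.38 (SE), which edgeR gave an unadjusted p of 0.0793 and an adjusted p of 0.999. Without Maltreated 1 the log2 fold change was 0.13.

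CAPZA3, the capping subunit, had 42.8, 20.7 and 24.6 CPM in Maltreated 1 to 3, against 26.8, 10.7, 18.3 and 4.84 CPM in Control 1 to 4. All Maltreated libraries exceeded 3 of the 4 Control libraries, and Control 1 lay above 2 of them. Means were 29.4 ± 11.8 (SD, n = 3) and 15.1 ± 9.51 CPM (SD, n = 4), and the log2 fold change of 0.95 ± 0.67 (SE) was the largest positive one among the 8 genes (edgeR adjusted p = 0.999). It was 0.56 without Maltreated 1 and 0.64 without Control 4, the lowest library. CAPZA3 and SPATA3 placed the 7 libraries in exactly the same order, the 1 pair of the 28 pairs among these genes to do so.

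SPEM1 had 138, 26.1 and 45.2 CPM in Maltreated 1 to 3, against 56.9, 45.1, 27.2 and 61.1 CPM in Control 1 to 4. Both the highest and the lowest library were thus Maltreated ones. Its log2 fold change was 0.56 ± 0.57 (SE), and -0.42 without Maltreated 1. ACTL7A behaved alike, with 46.4, 18.6 and 11.1 CPM in Maltreated 1 to 3, against 13.8, 23.9, 20.2 and 20.3 CPM in Control 1 to 4. Its log2 fold change of 0.38 ± 0.62 (SE) was -0.40 without Maltreated 1. ACTRT2 had 57.5, 38.8 and 28.4 CPM in Maltreated 1 to 3, against 41.7, 54.4, 45.4 and 21.8 CPM in Control 1 to 4. The group means of ACTRT2, 41.6 ± 14.8 (SD, n = 3) and 40.8 ± 13.8 CPM (SD, n = 4), differed by far less than the spread within either group, and its log2 fold change of 0.03 ± 0.47 (SE) was -0.29 without Maltreated 1.

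The remaining 3 genes had fold changes below 0. LELP1 had 365, 394 and 270 CPM in Maltreated 1 to 3, against 583, 205, 317 and 693 CPM in Control 1 to 4. All 3 Maltreated libraries lay between the lowest Control library (Control 2) and the 2 highest (Control 1 and 4). The log2 fold change was -0.39 ± 0.40 (SE), and -0.12 without Control 4. FAM71B had 8.34, 5.69 and 5.99 CPM in Maltreated 1 to 3, against 7.90, 15.0, 3.76 and 18.8 CPM in Control 1 to 4, a log2 fold change of -0.77 ± 0.84 (SE), and -0.43 without Control 4. ACTL7B had 5.56, 6.69 and 3.21 CPM in Maltreated 1 to 3, against 1.71, 6.16, 11.6 and 1.30 CPM in Control 1 to 4. The spread of ACTL7B among Control animals covered all Maltreated values, and its log2 fold change was -0.01 ± 1.07 (SE).

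**Figure D2:**
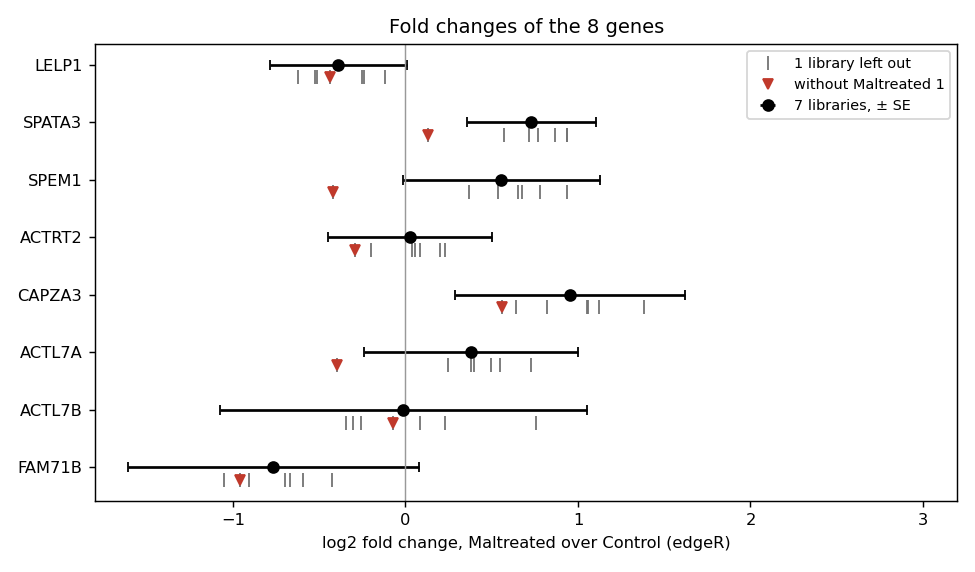
Log2 fold change of Maltreated over Control for each gene (edgeR, black points with bars of 1 SE), the values with 1 library left out (grey ticks) and the value without Maltreated 1 (red triangles). SPEM1, ACTL7A and ACTRT2 change sign without Maltreated 1, and SPATA3 is at 0.13 without it, against 0.73 with all 7 libraries.

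Across the 8 genes 5 had a log2 fold change above 0, with a median of 0.20, beside 48.7% above 0 and a median of -0.02 over all tested genes. Without Maltreated 1 only 2 of the 8 were above 0 and the median was -0.34, beside -0.07 over all tested genes. Maltreated 1 was the highest library for 5 of the 8 genes and for 9.0% of all tested genes. Control 4 was the lowest for 4 of the 8 (SPATA3, CAPZA3, ACTRT2 and ACTL7B), and the highest for 2 (LELP1 and FAM71B). Over all tested genes it was the lowest for 30.5% and the highest for 24.1%. Maltreated 1 was also the deepest library and the one with the most PRM2, at 74203 CPM, against at most 40657 CPM in any other. The part of depth or of protamine RNA in these values was not tested. Without Control 4 and Maltreated 3, the libraries richest in leukocyte RNA, 6 of the 8 were above 0 with a median of 0.39. The median over all tested genes was -0.05 in that fit, which leaves out the lowest library of 4 of the 8.

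The spread between animals of 1 group, as the biological coefficient of variation that edgeR estimates per gene, was 0.41 in SPATA3 and 0.42 in LELP1, with 11.5 and 12.2% of tested genes at or below them. It was 0.52 in ACTRT2, 0.58 in SPEM1, 0.64 in ACTL7A, 0.67 in CAPZA3, 0.78 in FAM71B and 0.94 in ACTL7B, against 0.86 as the common value of all genes. These estimates are drawn toward a trend with abundance. In the CPM values themselves, the ratio of the highest to the lowest library was smallest in ACTRT2 (2.64), followed by LELP1 (3.38) and SPATA3 (3.98), and largest in CAPZA3 (8.84) and ACTL7B (8.91).

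The tested genes whose levels followed the mean log2 CPM of the 8 genes most closely over the 7 libraries were FAM173B (Pearson r = 0.97), PRM2 (0.96), SPATC1 (0.95), ATL1 (0.94) and C1orf234 (0.93). All 5 were highest in Maltreated 1. Without it r over the other 6 libraries was 0.83 for FAM173B, 0.83 for PRM2, 0.49 for SPATC1, 0.83 for ATL1 and 0.42 for C1orf234. These r describe 7 libraries that also share differences in depth, and carry no test.

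LELP1 sits at chromosome 1:127367612-127369281 on the plus strand, in the numbering of the deposited files. None of the sources used here names their genome build. The same stretch holds the epidermal differentiation complex, a cluster of genes for the barrier of skin. Of 22 listed genes of the complex other than LELP1 and SMCP, 5 had no sense count in any library and 18 had a median level of 0. Loricrin (LOR) had 12 sense counts over all 7 libraries, involucrin (IVL) 10, and the direct neighbours SPRR2G and PRR9 had 12 and 41, against 28517 for LELP1. The highest median among the 22 genes was 0.185 CPM per kilobase, beside 672 for LELP1, and their highest value in any single library was 11.7, for FLG. Some genes of the same stretch outside this list were higher. S100A10, S100A11 and S100A6 had medians of 6.92, 2.21 and 1.43 CPM per kilobase, and the highest value of S100A11 was 128. LELP1 thus stood alone among its direct neighbours, with the nearest annotated genes 63076 bases below and 11358 bases above it.

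SMCP, which encodes a cysteine-rich protein of the sperm mitochondrial capsule, starts 380 kb from LELP1 in the same complex and was the other abundant gene there. It had a median of 525 CPM per kilobase (249 to 1143), and 11 annotated genes start between the pair. SMCP had 817, 197 and 305 CPM in Maltreated 1 to 3, against 569, 209, 414 and 871 CPM in Control 1 to 4, and its log2 fold change of -0.23 ± 0.54 (SE) did not pass the test (edgeR adjusted p = 0.999). The ratio of LELP1 to SMCP per kilobase was lowest in Maltreated 1 (0.651), where it was below 1, and highest in Maltreated 2 (2.91).

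**Figure D3:**
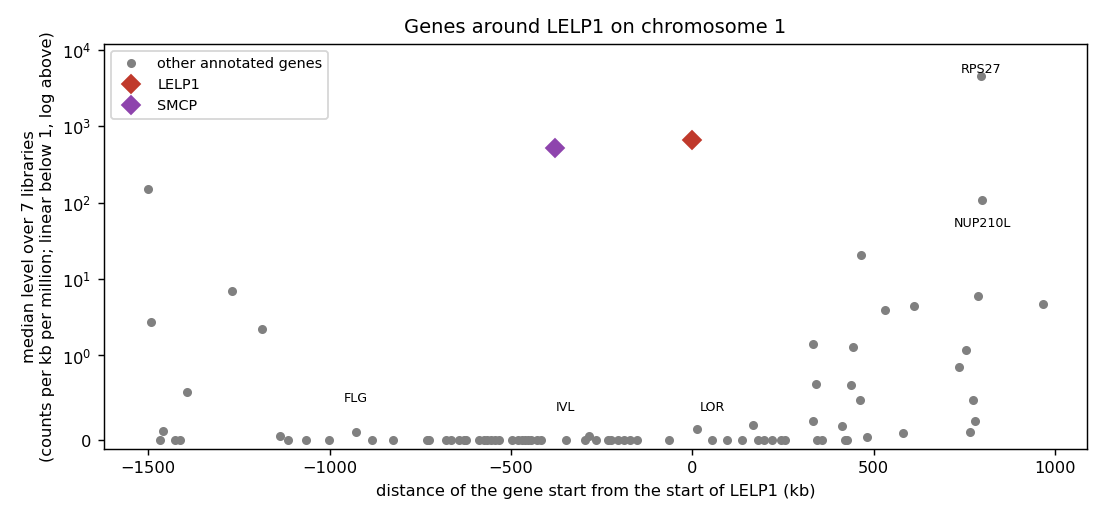
Median level over the 7 libraries, in CPM per kilobase (linear below 1, log above), of every annotated gene starting within 1500 kb below and 1000 kb above the start of LELP1. LELP1 and SMCP stand at 672 and 525, and skin genes such as FLG, IVL and LOR lie at or close to 0. Other abundant genes are OAZ3 at the lower end (151) and RPS27 and NUP210L further above.

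Other members also had neighbours that are read in the opposite direction or belong to the same family. CAPZA3 (chromosome 12:19564351-19565427, plus strand, 1 exon) starts 52 bases from the start-side end of PLCZ1, which lies on the minus strand and encodes the phospholipase that activates the egg. The pair did not keep 1 ratio: CAPZA3 over PLCZ1 per kilobase was 10.5, 4.18 and 5.21 in Maltreated 1 to 3, against 2.99, 2.61, 2.01 and 0.957 in Control 1 to 4. All 3 Maltreated ratios exceeded all 4 Control ratios. This ratio is 1 of 5 gene ratios computed, and the groups overlapped in the others. It was picked after its values were seen and carries no test. How often ratios of other gene pairs separate the groups was not counted. PLCZ1 itself had 9.12 ± 0.91 CPM (SD, n = 3) in Maltreated and 13.5 ± 5.17 CPM (SD, n = 4) in Control sperm, a log2 fold change of -0.57 ± 0.71 (SE). PLEKHA5, on the other side of CAPZA3, had 28 sense counts in all.

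ACTL7A (chromosome 9:80478814-80480244, plus strand) and ACTL7B (chromosome 9:80470741-80472146, minus strand) are single-exon genes arranged head to head, 6667 bases apart. ACTL7A was the higher one in 7 of 7 libraries. Its ratio to ACTL7B per kilobase was 8.20, 2.73 and 3.40 in Maltreated 1 to 3, against 7.92, 3.81, 1.70 and 15.3 in Control 1 to 4, so the groups overlapped. ACTL7A lies 3785 bases from IKBKAP, at a median of 2.07 CPM per kilobase, and ACTL7B far from KLF4, at 0.932. ACTRT2 (chromosome 1:1959244-1960654, plus strand, 1 exon) lay between TTC34 and PRDM16, with 22 and 58 sense counts in all.

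SPEM1 (chromosome 17:7320945-7322215, plus strand, 3 exons) is followed on the same strand, after 3443 bases, by C17orf74, the open reading frame name of its relative SPEM2. C17orf74 exceeded SPEM1 per kilobase in 7 of 7 libraries, by 1.62 to 4.89 times. It had 768, 186 and 188 CPM in Maltreated 1 to 3, against 156, 374, 217 and 393 CPM in Control 1 to 4, and like SPEM1 was highest in Maltreated 1. On the other side NLGN2, 515 bases away, had 134 sense counts in all. SPATA3 (chromosome 2b:119499073-119510406, plus strand, 5 exons) lay between GPR55 and C2orf72, with 9 and 143 counts. FAM71B (chromosome 5:155042389-155046442, minus strand, 2 exons) lay next to MED7, with 65 counts. Apart from PLCZ1, the ACTL7 pair and C17orf74, no nearest neighbour named here had a median above 2.07 CPM per kilobase.

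LELP1, SPATA3, SPEM1 and FAM71B have several exons. In LELP1 the first exon of 101 bases held 5765, 1256 and 1605 counts in Maltreated 1 to 3, against 3461, 349, 920 and 2167 in Control 1 to 4. The second exon of 426 bases held 5119, 1099 and 1507 in Maltreated 1 to 3, against 2002, 782, 933 and 1552 in Control 1 to 4. Per kilobase the first exon exceeded the second in 7 of 7 libraries, by 4.75, 4.82 and 4.49 times in Maltreated 1 to 3, against 7.29, 1.88, 4.16 and 5.89 times in Control 1 to 4. In the deposited counts a read that touches both exons is counted on each. A read that overlaps an exon only in part thus counts in full, which can raise a short exon per kilobase relative to a longer one. The part of this in the ratios was not tested.

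SPATA3 counts lay mostly on its first exons. Exon 1 held 63.1 to 73.4% of the counts of the gene over the 7 libraries, on 41.9% of its bases. Exons 4 and 5 together held at most 2.07% in any library on 17.9% of the bases, and no count in Control 4. In SPEM1 the third exon held 72.8 to 84.6% of the counts on 76.7% of the bases, close to its share of length. The short second exon of SPEM1, of 60 bases, held 0.641% of the counts in Maltreated 2 and 19.2% in Control 4. In FAM71B the second exon held 69.1, 70.6 and 58.0% in Maltreated 1 to 3, against 67.6, 95.2, 54.5 and 99.0% in Control 1 to 4, on 65.4% of the bases. The shares of the 2 groups overlapped for every exon of these 4 genes.

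**Figure D4:**
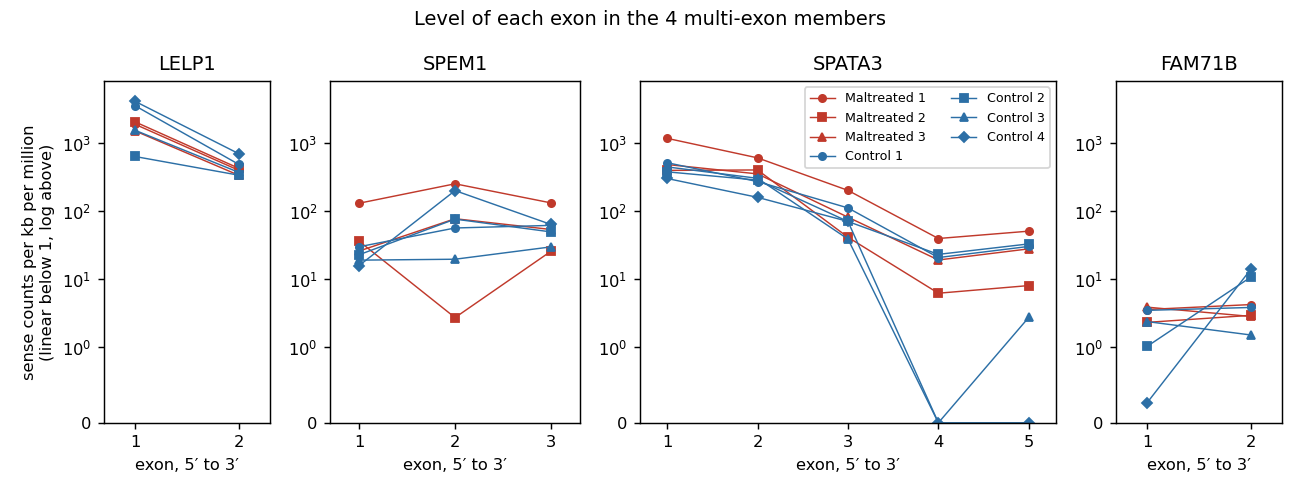
CPM per kilobase (linear below 1, log above) on each exon, 5′ to 3′, of LELP1, SPEM1, SPATA3 and FAM71B, with 1 line per library (Maltreated red, Control blue). LELP1 is higher on exon 1 in all 7 libraries, and SPATA3 falls to at most 2.07% of its counts on exons 4 and 5 together.

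The deposited covered bases are only a rough measure of how far the counts were spread along a gene. They can overstate that spread, as a single count was in places listed as covering a whole long exon. LELP1 was covered over 99.1 to 100% of its bases and SPATA3 over 76.8 to 100%. The 4 single-exon genes were covered almost fully in Maltreated 1, between 99.2 and 100%, and least in Control 4 for all 4 of them. CAPZA3 was covered over 99.6, 45.2 and 97.9% in Maltreated 1 to 3, against 100, 70.0, 58.2 and 6.87% in Control 1 to 4. The 26 counts of CAPZA3 in Control 4 were thus listed as covering 74 of 1077 bases. ACTL7A had 109 counts on 351 of 1431 bases in Control 4, whereas 129 counts covered 1339 bases in Control 1. ACTL7B had 40 counts on 160 of 1406 bases in Maltreated 2 and 37 counts on 829 bases in Maltreated 3.

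Other genes of the same kind differed between the libraries too. Among single-exon genes of 1000 to 2500 bases with 20 to 200 counts, the median covered share was 81.0, 26.2 and 57.8% in Maltreated 1 to 3, against 40.8, 65.0, 27.9 and 16.2% in Control 1 to 4. Maltreated 2 and Control 4 are thus the thinnest libraries of their groups by this measure.

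**Figure D5:**
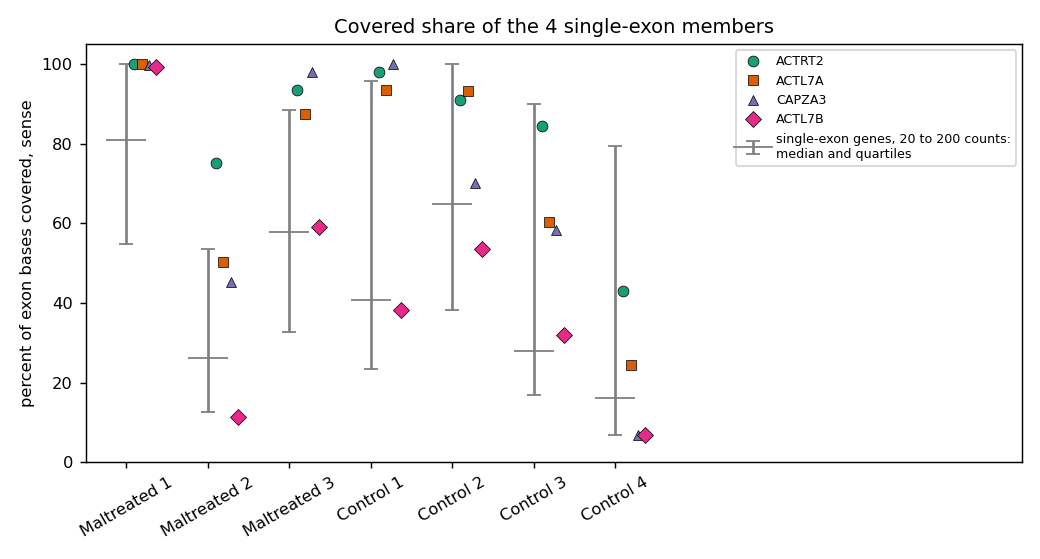
Percent of exon bases listed as covered on the sense strand in ACTRT2, ACTL7A, CAPZA3 and ACTL7B in each library, Maltreated left of Control. Grey marks the median and quartiles of single-exon genes of 1000 to 2500 bases with 20 to 200 counts. All 4 genes are lowest in Control 4, where the grey median is 16.2%.

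The deposited covered bases can be many for few counts. A single antisense count covered all 1077 bases of CAPZA3 in Control 3, and 1 sense count covered all 705 bases of the first exon of FAM71B in Control 4. FAM71B was thus listed as fully covered in Control 4, from 101 counts.

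Reads against the strand of a gene (antisense) were rare in 7 of the 8 genes. Over the 7 libraries they made up 0.281% of the counts of CAPZA3 (6 of 2134 counts, 95% exact binomial interval 0.103 to 0.611%), 0.259% of LELP1 and between 0.940 and 1.99% of SPATA3, SPEM1, FAM71B, ACTL7A and ACTRT2. The interval covers counting error only. For comparison, antisense reads made up 6.15, 9.69 and 8.45% of all counts in Maltreated 1 to 3, against 6.85, 10.4, 8.86 and 12.1% in Control 1 to 4. Each of the 7 genes lay below the share of its library in 7 of 7 libraries. How many of all genes do so was not counted. Some of these shares are 0 beside few sense counts, such as the 26 of CAPZA3 in Control 4. The median over the 13180 genes with at least 100 counts was 6.37%.

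ACTL7B was the exception, with 49 antisense against 368 sense counts (11.8%). Of these, 34 came from Control 4, where the gene had only 7 sense counts, and they covered 195 of its 1406 bases. In SPATA3, 195 of 253 antisense counts lay on the third exon, and 129 of those were in Maltreated 1. Only LELP1 and SPATA3 had enough antisense counts to be tested between the groups among 4382 genes, and neither passed (0 of 2, and 0% of all). LELP1 had 32, 14 and 20 antisense counts in Maltreated 1 to 3, against 8, 0, 0 and 0 in Control 1 to 4, a log2 fold change of 2.85 ± 1.86 (SE; edgeR unadjusted p = 0.151, adjusted p = 0.998). Without Control 1, the 1 Control library with any, the fitted value was 7.26 with an edgeR unadjusted p of 0.0153 and no call after adjustment, and is no measure of size because the other Control libraries had none. At an edgeR unadjusted p under 0.05 there were 110 of the 4382 genes with all 7 libraries, and 104 of 3609 genes in the fit without Control 1.

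The genes that work beside these proteins were described by lists. Of the perinuclear theca and acroplaxome list, 17 of 20 genes were in the table and 13 were tested. None passed, 8 were above 0 and 5 below, and the median log2 fold change was 0.30, or 0.06 without Maltreated 1, -0.04 without Maltreated 3 and -0.14 without Control 4 and Maltreated 3. CYLC2, a cylicin of the calyx at the base of the head, had 7.37, 10.5 and 4.95 CPM in Maltreated 1 to 3, against 18.7, 9.42, 13.7 and 30.9 CPM in Control 1 to 4, a log2 fold change of -1.26 ± 0.73 (SE). SPACA1, an acrosomal membrane protein, had 66.9, 9.87 and 41.1 CPM in Maltreated 1 to 3, against 17.6, 19.6, 29.0 and 0 CPM in Control 1 to 4. WBP2NL, a protein of the postacrosomal sheath, was at a log2 fold change of 0.52 ± 0.43 (SE). The actin-like ACTL9, with a median of 5.85 CPM per kilobase, had one of 0.64 ± 1.00 and CYLC1, the other cylicin, one of -1.20 ± 1.55. ACTRT1, ACTRT3 and CCIN, the calicin gene, had 51, 119 and 88 sense counts in all and were too low to be tested. The median level of ACTRT2 per kilobase (28.1) was above those of ACTRT1 (0.232) and ACTRT3 (0.696).

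Of the manchette and head shaping list, named for the microtubule skirt that surrounds the spermatid nucleus, 26 of 27 genes were in the table and all 26 were tested. None passed, 11 were above 0 and 15 below, with a median of -0.19. IQCG, a calmodulin-binding protein gene, had 240 CPM in Maltreated 1, 96.3 in Maltreated 2 and 130 in Maltreated 3, against 323, 210, 299 and 190 CPM in Control 1 to 4. Its log2 fold change was -0.72 ± 0.36 (SE), with an edgeR unadjusted p of 0.0761. KATNAL2, a gene of the katanin family of microtubule-severing proteins, had a log2 fold change of -0.77 ± 0.46.

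Of the capping protein and actin list all 15 genes were tested and none passed, with 9 above 0 and a median of 1.04. Without Maltreated 3 alone the median was -0.35 with 4 of 15 above 0, and without Control 4 and Maltreated 3 it was 0.23. The genes with the smallest p were those of the actin cytoskeleton of every cell, which were highest in Maltreated 3. ACTB had 14.6, 23.6 and 675 CPM in Maltreated 1 to 3, against 10.7, 24.8, 28.7 and 173 CPM in Control 1 to 4, a log2 fold change of 2.00 ± 1.24 (SE). ACTR2 and ACTG1 had 48.2 and 130 CPM in Maltreated 3 and at most 11.2 and 45.3 CPM in any other library. The part of leukocyte RNA in these values was not tested. The group means of CAPZB and CAPZA1 differed by less than 1 SD. CAPZB, the beta subunit, had 125 ± 44.6 (SD, n = 3) and 137 ± 54.6 CPM (SD, n = 4), and CAPZA1 had 137 ± 32.7 and 146 ± 51.8 CPM in Maltreated and Control sperm. Per kilobase CAPZA1 (median 48.5) and CAPZB (35.1) stood above CAPZA3 (18.7) and CAPZA2 (1.21).

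Among SPEM1 partners and relatives 4 of 5 genes in the table were tested, none passed and 3 were above 0, with a median of 0.22, or -0.06 without Maltreated 1. UBQLN1 and RANBP17, whose products bind SPEM1 in mice, had log2 fold changes of -0.01 ± 0.35 and 0.03 ± 0.25 (SE). RANBP17, a nuclear transport receptor, had a median of 810 CPM per kilobase, above LELP1.

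In the FAM71 family list, with its GTPase partners RAB2A and RAB2B, all 9 genes were tested, none passed and 3 were above 0, with a median of -0.13, or -0.49 without Maltreated 1 and 0.13 without Maltreated 2. RAB2B had a log2 fold change of -0.97 ± 0.90 (SE), FAM71E1 of 0.59 ± 0.74 and FAM71C of -0.75 ± 1.25. The other relatives, FAM71A, FAM71D, FAM71E2, FAM71F1 and FAM71F2, ran from -0.24 to 0.12. Per kilobase FAM71B (median 3.69) was lower than every relative except FAM71C (1.27). The highest were FAM71E1 (21.5) and FAM71F2 (20.9).

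Of the marker lists, the 6 tested genes of the protamine group had a median log2 fold change of 0.09, or -0.19 without Maltreated 1 and -0.04 without Control 4, with TNP1 at -0.22 ± 0.26 (SE), PRM2 at 0.27 ± 0.33 and PRM3 at -0.31 ± 0.41. The 6 tested earlier germ cell markers had a median of -0.09, which ran from -0.29 without Maltreated 1 to 0.23 without Control 4, with MEIOB at 0.69 ± 0.40, SYCP3 at -1.75 ± 1.32 and STRA8 at -1.45 ± 1.10. The 7 tested leukocyte markers had a median of 3.00, with PTPRC at 3.38 ± 1.45, CD68 at 4.08 ± 1.95 and ITGAM at 2.72 ± 1.37. Without Maltreated 3 alone the median of the leukocyte markers was -1.29 with 3 of 8 above 0, and without Control 4 and Maltreated 3 it was 0.88 over 6 tested genes. Of the others, KRT8, MYH11, AMH and WT1 were tested, at -1.77 ± 1.61, 1.54 ± 0.91, 0.70 ± 1.00 and -0.31 ± 1.24. None of these marker genes passed the test (edgeR, adjusted over 10719 genes).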

How the data were processed

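The submitters' processing notes list STAR, featureCounts and bedtools, without versions or roles. No source used here names the genome build. The deposited files hold raw counts of reads per exon, by strand, and a table of the whole series holds their sums per gene as sense and antisense counts. The fraction of bases covered is also as deposited by the authors, per the file headers. The table's counts equalled the sums over the exon files in all 7 libraries. Of 18284 genes, 2 listed on both strands were left out.

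Counts were tested with edgeR 4.0.16 (R 4.3.3): TMM factors, filterByExpr (minimum count of 10, minimum total of 15), quasi-likelihood F test, and Benjamini-Hochberg adjustment over all tested genes at 0.05, with 5 residual degrees of freedom. Correlations used log2 CPM with a prior count of 2. Levels per kilobase and summed list levels use all sense counts of a library. The fit was run on simulated data, with the spread between samples seen here and with a much lower one. It was required to recover the changes only at the lower spread. This check therefore does not show how many changes the fit finds in data as variable as these. Alternatives used DESeq2 1.42.0, limma 3.58.1 and other scalings, filters and subsets.

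The members, the 11 further lists, tests and alternatives were chosen with earlier results of these data known. Named genes are the members, their partners, relatives and nearest neighbours, the 3 genes of smallest p in each list and the 5 most alike, a few of which are not reported here. Sequences of the members were not used here.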

Additional observations from a re-analysis of the deposited data

Results flagged for a closer look

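Among the 4 Control libraries, 6 of 48 checked quantities had 1 library that stood apart from the other 3 by Dixon's criterion at the 95% level. Chance meets it in about 1 in 20 groups of continuous values. That rate does not hold for the antisense counts that are 0 in 3 libraries, which meet it with a single read, so the 6 are not set against it. ACTL7B had 34 antisense counts in Control 4, against 0 to 2 in the other Control libraries. LELP1 had 8 antisense counts in Control 1 and none in the other Control libraries. FAM71B had 2 antisense counts in Control 1 and CAPZA3 had 1 in Control 3, and the other Control libraries had none of either. SPATA3 held 66.3% of its counts on exon 1 in Control 2, against 71.7 to 72.5% in the other Control libraries. The leukocyte markers summed to 618 CPM in Control 4, against 5.59 to 34.5 CPM in the other Control libraries.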

How the results depend on the processing

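None of the 8 genes passed the test under any alternative run. The whole table had 0 calls in every edgeR and limma-voom setting except with age as a covariate (1 gene, CD63), and 3 by the DESeq2 Wald test (CA11, CHIA and PPP2R2C, named after their values were seen). Leaving out 1 library at a time gave 0 to 0 calls for sense and 0 to 0 for antisense counts, and 2 to 6 of the 8 genes above 0, the lowest without Maltreated 1. The median log2 fold change of the 8 genes ran from -0.34 to 0.48 over those fits.

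Signs turned as follows, with no call in either direction, and the cause was not tested. Without Maltreated 1, ACTL7A was -0.40, ACTRT2 -0.29 and SPEM1 -0.42. With age as a covariate, ACTL7A was -0.32, ACTRT2 -0.62, LELP1 0.21 and FAM71B 0.13. ACTL7B was 0.00695 by total counts, 0.20 by limma-voom, 0.08 without Control 2, 0.75 without Control 3 and 0.23 without Maltreated 3. ACTRT2 was -0.055 by limma-voom and -0.20 without Control 4. Without Control 4 and Maltreated 3 together, chosen after seeing the data, LELP1 was 0.026. ACTL7A kept its sign in that fit, at 0.745. With 1 library left out, the highest SPEM1 value was 0.935 (without Maltreated 2) and the lowest LELP1 value -0.625 (without Control 2). SPATA3 had an unadjusted p of 0.047 without Maltreated 2 and 0.0481 without Maltreated 3. Limma-voom gave a median of all genes of 0.13, against -0.02. Counting each distinct exon once gave a mean LELP1 level of 787 per kilobase in Maltreated sperm, against 650.0. LELP1 lists no exon more than once, so its own counts were unchanged and only the library totals were smaller. Limma-voom also gave -0.27 for FAM71B. With 1 library left out, log2 fold changes ran from 0.56 to 1.38 in CAPZA3, from 0.13 to 0.94 in SPATA3, from -0.40 to 0.73 in ACTL7A and from -1.05 to -0.43 in FAM71B. With the replicate number as a block, ACTRT2 was -0.23, LELP1 0.0048, FAM71B -0.21, antisense LELP1 4.01 and antisense SPATA3 -0.62, and the count of calls stayed at 0. Deviations of same-numbered samples correlated at 0.07, 0.01 and -0.02. Maltreated 1 correlated best with its own number, and Maltreated 2 and Maltreated 3 did not. Correlations this small cannot decide whether same-numbered samples are paired, and the labels give them only the same number. With 368 and 632 sense counts in all 7 libraries, ACTL7B and FAM71B are the genes most limited by depth.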
